A study of Mus musculus with 6 samples.

Results

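To examine activity-induced immediate-early genes in the ischemic retina under chronic intermittent hypoxia (CIH), 10 named genes were followed through bulk RNA sequencing of mouse retina: Fos, Fosb, Fosl2, Junb, Egr1, Egr2, Nr4a1, Nr4a2, Nr4a3 and Arc. They were chosen by name, with earlier results of these data known, from the 32285 genes of the count table. All 10 were among the 20021 genes with enough reads to be tested. All pups were wild-type C57BL/6J mice and had been kept with their mothers in 75% O2 from postnatal day (PN) 8 to PN13, the oxygen-induced retinopathy (OIR) model, in which the central retinal capillaries are lost and abnormal vessels then grow. The 3 OIR-CIH libraries came from pups that from PN13 spent 10 h of each day, in their sleep period, in a cage cycling between 20.95% and 5% O2 (266 cycles of 135 s, each holding the low level for 30 s), and the 3 OIR-Norm libraries came from pups given the gas flow and noise without a change in O2. Retinas were taken at PN18, and stranded poly(A) libraries were made from 250 ng of RNA. The hour of collection and the time since the last cycle, which bear on genes that respond within minutes, were not given in the sources used here.

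Immediate-early genes are transcribed within minutes of a stimulus without the need for new protein, in neurons most often after calcium entry and kinase signalling. The kinases act on factors already bound at the promoters, CREB at cyclic AMP response elements (CRE) and SRF with its partners at CArG boxes, and the mRNAs are short-lived. Fos, Fosb, Fosl2 and Junb encode subunits of the dimeric factor AP-1, Egr1 and Egr2 encode zinc finger factors, and Nr4a1, Nr4a2 and Nr4a3 encode orphan nuclear receptors. Arc is not a transcription factor but a synaptic protein that promotes the removal of AMPA receptors from the membrane, and it is widely used as a marker of neuronal activity together with the others.

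The promoters of the Nr4a family are shown with those of Fos and Egr2 because Nr4a1 was called and its relatives Nr4a2 and Nr4a3 were not, although all of these windows held the core of the CRE. The sequences are those of RefSeq on GRCm38.p6, each ending just before the annotated start except for Nr4a3, which is shown only as far as its annotated exon. They are written 5′ to 3′ on the strand of the gene, and capitals mark TGACG, the core of the CRE, or its reverse CGTCA and, in Egr2, the CArG box.
Nr4a1 chr15:101266596-101266845 (plus strand): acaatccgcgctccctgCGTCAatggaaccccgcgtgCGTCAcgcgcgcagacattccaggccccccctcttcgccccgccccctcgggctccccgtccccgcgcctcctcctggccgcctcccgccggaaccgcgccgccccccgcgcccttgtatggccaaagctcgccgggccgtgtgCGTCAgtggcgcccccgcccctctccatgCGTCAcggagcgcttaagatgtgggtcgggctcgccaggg
Nr4a2 chr2:57124004-57124253 (minus strand): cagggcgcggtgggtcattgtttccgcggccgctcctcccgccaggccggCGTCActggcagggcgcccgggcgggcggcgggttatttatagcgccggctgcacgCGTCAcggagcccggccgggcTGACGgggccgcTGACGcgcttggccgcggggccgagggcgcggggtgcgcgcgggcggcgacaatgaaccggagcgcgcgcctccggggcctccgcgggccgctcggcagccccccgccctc
Nr4a3 chr4:48045055-48045152 (plus strand): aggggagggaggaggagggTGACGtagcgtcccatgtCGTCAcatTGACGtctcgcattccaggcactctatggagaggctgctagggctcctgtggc
Fos chr12:85473640-85473889 (plus strand): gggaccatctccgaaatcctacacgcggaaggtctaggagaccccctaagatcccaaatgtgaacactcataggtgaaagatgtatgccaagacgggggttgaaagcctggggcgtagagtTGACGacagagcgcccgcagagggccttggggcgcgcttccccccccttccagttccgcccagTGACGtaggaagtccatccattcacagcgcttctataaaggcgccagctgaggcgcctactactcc
Egr2 chr10:67537619-67537868 (plus strand): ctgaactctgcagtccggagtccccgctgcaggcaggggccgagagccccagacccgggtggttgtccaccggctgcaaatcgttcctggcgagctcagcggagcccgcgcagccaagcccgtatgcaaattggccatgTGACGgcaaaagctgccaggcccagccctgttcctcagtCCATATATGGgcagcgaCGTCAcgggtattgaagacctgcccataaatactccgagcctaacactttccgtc
The Nr4a1 and Nr4a2 windows held 4 cores each, as did the full 250-base window of Nr4a3, of which 3 are shown. The Fos and Egr2 windows held 2 each. The Nr4a1 and Egr2 windows lay inside the span of their gene but in no annotated exon, since other annotated transcripts start further upstream. The Egr2 window is 1 of 5 listed for that gene and was chosen because none of the others held more matches. The Egr2 windows starting at 67535249 and 67537316 held 0 cores. A window was found for 8 of the 10 genes, Egr1 and Arc having no entry. A core was present in 7 of these 8, Fosl2 being the exception, against 17.8% of all 32851 windows searched on both strands. A gene was counted if any of its windows held a core, whereas the share is per window. A CArG box was present in Egr2 alone, against 1.47% of all windows, and the full element TGACGTCA in 0 of the 8, against 1.55%. Only the 250 bases before each listed start were searched, so sites further away would not be seen. The core is part of the full element, and a match describes the letters of the window and not a bound site.

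The libraries held 26289905 to 38010151 counts. Every library held both Xist RNA (298 to 1653 CPM, counts scaled to the library total) and RNA of Y-linked genes (57.3 to 184 CPM summed), although the methods name 3 eyes per group, so that the number of animals behind a library is not known and p-values measure the spread between libraries only. Photoreceptor markers summed to 44215 to 57980 CPM and microglia markers to 73.6 to 104.95 CPM. In bulk tissue fewer cells of a type and less RNA per cell cannot be told apart.

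Nr4a1 was the 1 gene of the 10 that passed the test with all libraries kept, and it was lower in OIR-CIH. Nr4a1 encodes the orphan nuclear receptor NUR77, which is induced in neurons, vessels and immune cells. Its level was 46.1, 42.2 and 44.9 CPM in OIR-CIH replicates 1, 2 and 3 and 74.8, 70.8 and 55.8 CPM in OIR-Norm replicates 1, 2 and 3. The groups did not overlap, and the lowest OIR-Norm library stood above the highest OIR-CIH library. The mean was 44.4 ± 2.0 CPM in OIR-CIH and 67.1 ± 10.0 CPM in OIR-Norm (SD, n = 3 libraries each), a log2 fold change of -0.60 (SE 0.10), with an adjusted p of 0.0211 in edgeR's quasi-likelihood test with Benjamini-Hochberg adjustment over all genes. Nr4a1 ranked 54 of the 20021 genes by p. A gene was called when its adjusted p was under 0.05 and its log2 fold change exceeded 0.5 in size, and 0.315% of all genes were called in either direction and 0.215% as lower. The call needed nearly all libraries: without OIR-CIH replicate 1, 2 or 3 the edgeR adjusted p was 0.0979, 0.0903 and 0.0793, and without OIR-Norm replicate 1 or 2 it was 0.0621 and 0.0831, while without OIR-Norm replicate 3 it was 0.00218. The log2 fold change stayed between -0.72 and -0.52 in these 6 fits.

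The other Nr4a genes showed no such difference. Nr4a2, encoding NURR1, which dopaminergic neurons require, was at 7.69, 7.77 and 9.87 CPM in OIR-CIH and 8.47, 7.75 and 8.20 CPM in OIR-Norm, in replicate order as in all values that follow. The groups overlapped, with OIR-CIH replicate 3 the highest of the 6, and the log2 fold change was 0.06 (SE 0.14). Nr4a3, encoding NOR1, was at 1.02, 1.66 and 1.96 CPM in OIR-CIH and 1.53, 2.39 and 1.04 CPM in OIR-Norm. Its groups spanned much the same range, with a log2 fold change of -0.06 (SE 0.32). The edgeR adjusted p with Benjamini-Hochberg adjustment was 0.892 for Nr4a2 and 0.951 for Nr4a3. The standard errors leave room for changes of either sign, and the difference between Nr4a1 and its relatives was not tested.

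**Figure D1:**
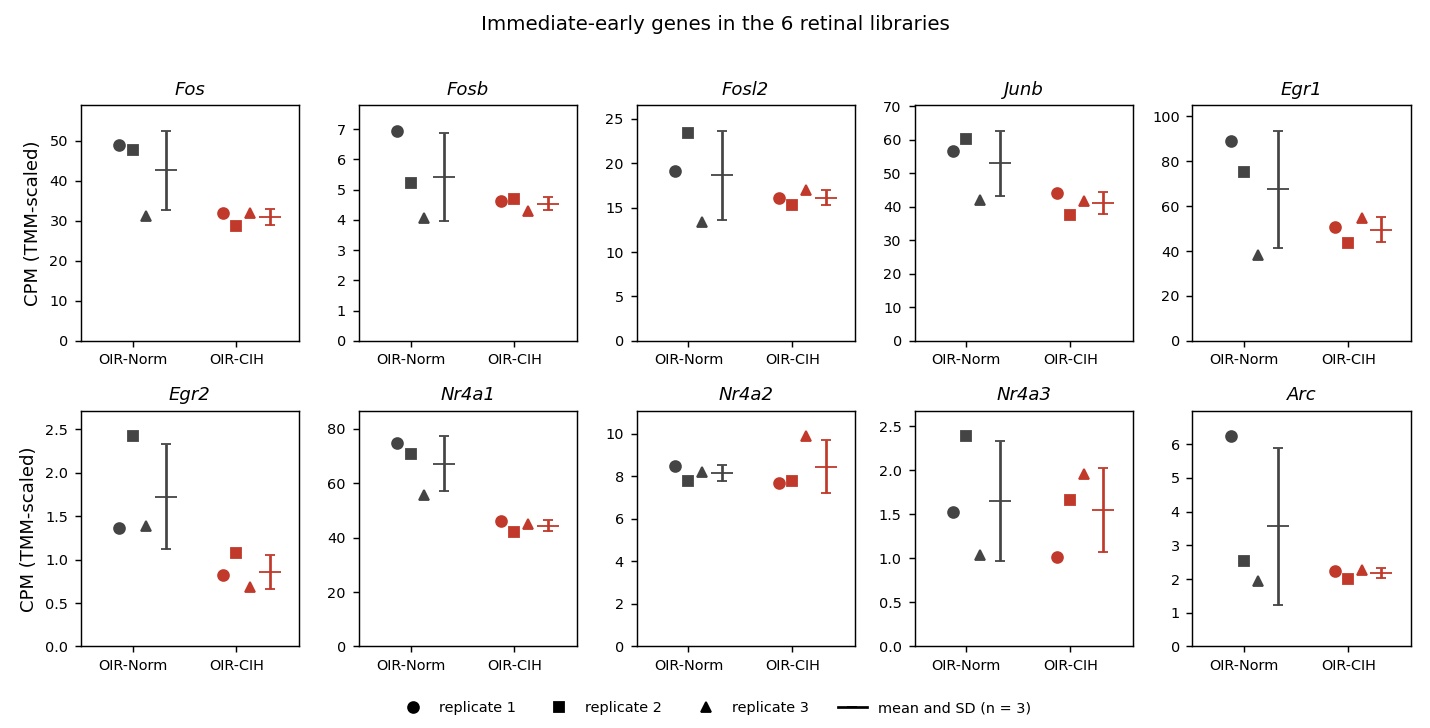
CPM of each of the 10 genes (y axis, from 0, TMM-scaled, a different scale in each panel) in the 3 OIR-Norm and 3 OIR-CIH libraries, with symbols for the replicates and bars for the mean and SD. Nr4a1 and Egr2 are the panels without overlap between groups, and OIR-Norm replicate 3 (triangle) lies near the OIR-CIH points in most others, for example 31.1 CPM for Fos against 28.7 to 32.04 CPM.

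The AP-1 subunit genes Fos, Junb, Fosb and Fosl2 were lower on average in OIR-CIH without passing the test. The AP-1 genes Jun and Jund, described below, were higher. Fos, which pairs with JUN proteins to form AP-1, was at 32.02, 28.7 and 32.04 CPM in OIR-CIH and 48.8, 47.7 and 31.1 CPM in OIR-Norm. OIR-Norm replicates 1 and 2 stood above every OIR-CIH library, and OIR-Norm replicate 3 was within the OIR-CIH range. The log2 fold change was -0.46 (SE 0.14), with an edgeR adjusted p of 0.232 after Benjamini-Hochberg adjustment. Junb, a JUN protein with weaker activating function than JUN itself, was at 44.2, 37.6 and 41.8 CPM in OIR-CIH and 56.7, 60.3 and 41.9 CPM in OIR-Norm. The same OIR-Norm libraries were high and OIR-Norm replicate 3 again lay within the OIR-CIH range, giving a log2 fold change of -0.36 (SE 0.12) and an edgeR adjusted p of 0.266 with Benjamini-Hochberg adjustment. The Junb locus overlaps Prdx2 on the opposite strand, and as the strand setting of the counts was not stated, reads of the overlapping part cannot be assigned to either gene with certainty.

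Fosb, whose truncated isoform accumulates with repeated stimulation, was at 4.63, 4.68 and 4.29 CPM in OIR-CIH and 6.94, 5.23 and 4.05 CPM in OIR-Norm. Fosl2, encoding FRA2, was at 16.0, 15.4 and 17.0 CPM in OIR-CIH and 19.2, 23.4 and 13.4 CPM in OIR-Norm. In both genes OIR-Norm replicates 1 and 2 were above all OIR-CIH libraries and OIR-Norm replicate 3 was below all of them. The log2 fold changes were -0.26 (SE 0.19) for Fosb and -0.21 (SE 0.16) for Fosl2, with edgeR adjusted p of 0.599 and 0.630 by Benjamini-Hochberg adjustment.

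The Egr genes and Arc were also lower on average in OIR-CIH without passing the test, and their OIR-Norm libraries differed widely. Egr1, the zinc finger factor also called Zif268, was at 50.5, 43.5 and 54.6 CPM in OIR-CIH and 89.0, 75.0 and 38.3 CPM in OIR-Norm. Its OIR-Norm libraries thus held both the highest and the lowest values of the 6, and the log2 fold change was -0.44 (SE 0.22, edgeR adjusted p of 0.410, Benjamini-Hochberg). Egr2, also known as Krox20 and required for myelination by Schwann cells, was scarce, with 21, 31 and 26 reads in OIR-CIH and 42, 69 and 44 reads in OIR-Norm, or 0.824, 1.07 and 0.688 CPM against 1.36, 2.42 and 1.38 CPM. The groups did not overlap, and the log2 fold change of -1.0 (SE 0.30) was the largest in size among the 10 genes, but the edgeR adjusted p with Benjamini-Hochberg adjustment was 0.227. Arc was at 2.24, 2.01 and 2.28 CPM in OIR-CIH and 6.23, 2.53 and 1.95 CPM in OIR-Norm. OIR-Norm replicate 1 alone stood far above the rest, with 192 reads against 57 to 86 in the other 5 libraries, and the log2 fold change of -0.71 (SE 0.35, edgeR adjusted p of 0.405, Benjamini-Hochberg) came to -0.04 without that library.

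Across the 10 genes, 9 had a negative log2 fold change, against 50.5% of all genes tested, and the median was -0.40, against -0.003 for all genes. The groups did not overlap for 2 genes, Nr4a1 and Egr2, both lower in OIR-CIH, against 18.4% of all genes in either direction and 9.26% lower. An unadjusted p under 0.05 was reached by 4 of the 10 (Nr4a1, Egr2, Fos and Junb, all lower), against 13.2% of all genes in either direction and 7.01% lower. As immediate-early genes are known to be co-regulated and were measured in the same libraries, these counts are not independent observations. The 10 genes were also chosen with earlier results of these data known, so the counts and the median only describe this list. With 3 libraries against 3, the smallest p that an exact two-sided permutation test allows for any gene is 0.1.

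**Figure D2:**
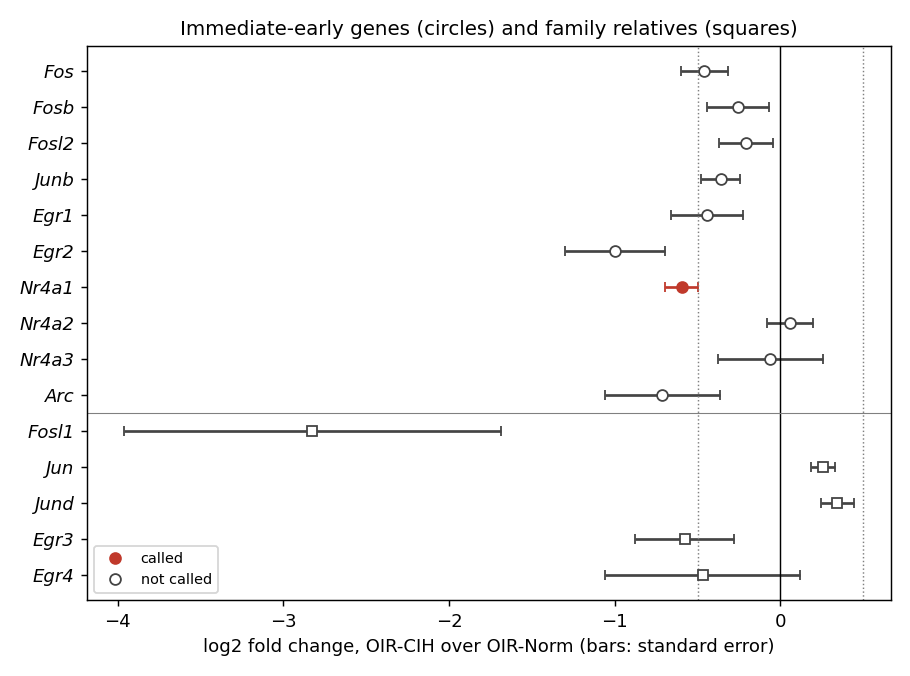
Log2 fold change of OIR-CIH over OIR-Norm (x axis) with its standard error (bars) for the 10 genes (circles) and 5 family relatives (squares), with dotted lines at 0.5 in either direction. The filled circle is Nr4a1 at -0.60, the one called gene, and Fosl1, with at most 31 reads in a library, has the widest bar.

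For most of the genes the high values were those of OIR-Norm replicates 1 and 2. For 8 of the 10 genes both of these libraries stood above all OIR-CIH libraries, the exceptions being Nr4a2 and Nr4a3. OIR-Norm replicate 3 was the lowest of its group for 8 genes, against 31.4% of all genes, was at or below the highest OIR-CIH library for 8, and was below every OIR-CIH library for 4. The median deviation of the 10 genes from their own mean over the 6 libraries, on the log2(CPM + 0.5) scale, was 0.36, 0.39 and -0.22 in OIR-Norm replicates 1, 2 and 3 and -0.15, -0.23 and -0.15 in the OIR-CIH replicates. The OIR-CIH libraries were close to each other, and the OIR-Norm libraries were not. The SD on that scale was wider in OIR-Norm for 9 of the 10 genes, Nr4a2 being the exception, against 54.3% of all genes, with a median SD of 0.366 in OIR-Norm and 0.103 in OIR-CIH. For the 14800 genes with a mean of at least 1 CPM the medians were 0.117 and 0.105. The wider spread of Arc (SD 0.770 against 0.0783) and Egr1 (0.637 against 0.166) stood out in size, and no test of the spread was run.

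When OIR-Norm replicate 3 was left out, 4 of the 10 genes were called by edgeR with Benjamini-Hochberg adjustment. That fit called 104 of all 19585 genes tested in it, 88 of them lower, against 63 of 20021 with all libraries. These were Nr4a1 (log2 fold change -0.72, adjusted p of 0.00218), Fos (-0.64, 0.00827), Egr1 (-0.73, 0.00993) and Junb (-0.51, 0.0349). In each of the other 5 fits without 1 library, 0 of the 10 were called and 4 had an unadjusted p under 0.05. Of the 19630 to 19773 genes tested in those edgeR fits, 35 to 74 were called and 1637 to 2705 had such a p. The median log2 fold change of the 10 was -0.58 without OIR-Norm replicate 3, at one extreme, and -0.19 when OIR-Norm replicate 1 was dropped, at the other. Nothing in the labels sets OIR-Norm replicate 3 apart, and all 6 libraries were kept.

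**Figure D3:**
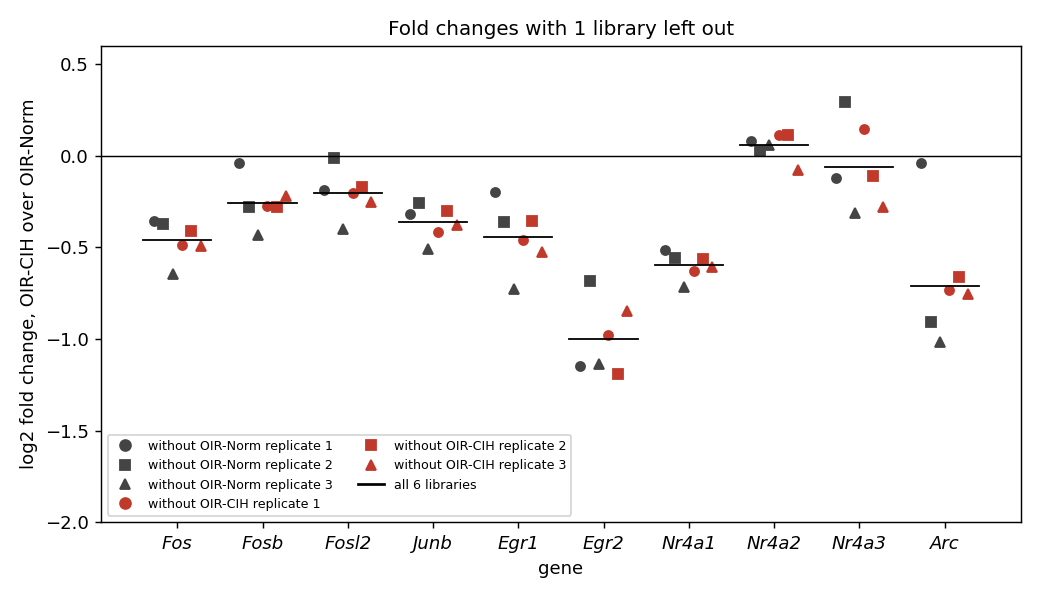
Log2 fold change of OIR-CIH over OIR-Norm (y axis) for each gene when 1 of the 6 libraries is left out (symbols) and with all 6 (lines). The values without OIR-Norm replicate 3 (dark triangles) are the lowest for most genes, and Arc moves from -0.71 with all libraries to -0.04 without OIR-Norm replicate 1 (dark circle).

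The genes varied together over the libraries to different degrees. Over the 6 libraries, on the log2(CPM + 0.5) scale, the Pearson correlation with Fos was 0.982 for Junb, 0.934 for both Egr1 and Nr4a1, 0.848 for Fosl2, 0.823 for Fosb and 0.762 for Arc. It was 0.684 for Egr2, 0.458 for Nr4a3 and -0.069 for Nr4a2. Among the family relatives, other immediate-early factors and effectors described below, the correlation with Fos ran from -0.723 for Pcsk1 to 0.878 for Gem. Next to these extremes were Homer1 at -0.67 and Egr3 at 0.862. Nr4a2 correlated at 0.252 or less with each of the other 9 genes. Egr2 and Nr4a3 were close to some of the genes and not to others, Egr2 at 0.779 with Nr4a1 but 0.197 with Arc, and Nr4a3 at 0.766 with Fosl2 but 0.116 with Arc. These values describe 6 points that share libraries and contain the group difference, and no test was made of them. Among 12052 other genes with a mean of at least 5 CPM, the closest to the mean profile of the 10 were Atxn2 (r = 0.997), Ano6 (0.991), Hbb-bs (0.989), Cux1 (0.987) and S100a11 (0.986), none of them called, and 217 genes had an r over 0.9.

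Levels were compared between genes per kilobase of exon. In OIR-Norm the highest were Junb at 23.0 ± 4.23, Nr4a1 at 19.1 ± 2.86, Fos at 18.1 ± 4.22 and Egr1 at 15.0 ± 5.84 CPM per kb (SD, n = 3 libraries), neighbours whose ranges of mean ± SD overlapped. The others were far lower, Nr4a2 at 2.01 ± 0.0894, Fosl2 at 1.93 ± 0.519, Arc at 1.17 ± 0.760, Fosb at 0.866 ± 0.233, Egr2 at 0.507 ± 0.178 and Nr4a3 at 0.275 ± 0.114 CPM per kb, each overlapping the next in the same way. In OIR-CIH the same 4 genes led, with Junb at 17.9 ± 1.44, Fos at 13.1 ± 0.816, Nr4a1 at 12.6 ± 0.569 and Egr1 at 11.05 ± 1.26 CPM per kb. There Junb stood above Fos by more than the spread, while the ranges of mean ± SD overlapped between Fos and Nr4a1 and between Nr4a1 and Egr1. Nr4a2 (2.08 ± 0.305), Fosl2 (1.67 ± 0.0874), Fosb (0.726 ± 0.0343), Arc (0.711 ± 0.0468), Nr4a3 (0.258 ± 0.0801) and Egr2 (0.254 ± 0.0577 CPM per kb) followed, and among these the ranges of Fosb and Arc, and of Nr4a3 and Egr2, overlapped. The genes were measured in the same libraries, and differences between genes within a library were not tested.

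The family relatives outside the 10 did not share one direction, and 0 of 5 were called by edgeR, DESeq2 or limma, with 3 at an unadjusted p under 0.05 in edgeR, against 13.2% of all genes. Jun, the main partner of Fos in AP-1, was at 86.1, 78.3 and 80.5 CPM in OIR-CIH and 69.8, 71.4 and 63.9 CPM in OIR-Norm. Jund, the constitutively expressed JUN protein, was at 47.6, 43.8 and 51.4 CPM against 43.1, 35.7 and 33.8 CPM. Both genes were higher in every OIR-CIH library than in any OIR-Norm library, at log2 fold changes of 0.26 (SE 0.07) and 0.34 (SE 0.10), with edgeR adjusted p of 0.208 and 0.213 after Benjamini-Hochberg adjustment. They were the 2 of the 5 relatives without overlap of the groups, against 18.4% of all genes in either direction. The Jun locus overlaps Junos, the Jund locus Gm11175 and the Fosl1 locus Ccdc85b on the opposite strand, with the limit given for Junb.

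Egr3 and Egr4, the remaining Egr factors, were high in OIR-Norm replicate 1, as Arc was. Egr3 was at 2.001, 2.32 and 2.22 CPM in OIR-CIH and 4.97, 3.12 and 1.73 CPM in OIR-Norm, and Egr4 at 0.706, 1.39 and 1.16 CPM against 3.44, 0.702 and 0.408 CPM. The log2 fold changes were -0.58 (SE 0.30) and -0.47 (SE 0.59), with edgeR adjusted p of 0.440 and 0.776 by Benjamini-Hochberg adjustment, and that of Egr4 was 0.98 without OIR-Norm replicate 1. Fosl1, encoding FRA1, had 4, 0 and 1 reads in OIR-CIH and 2, 31 and 4 in OIR-Norm, too few for a comparison.

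**Figure D4:**
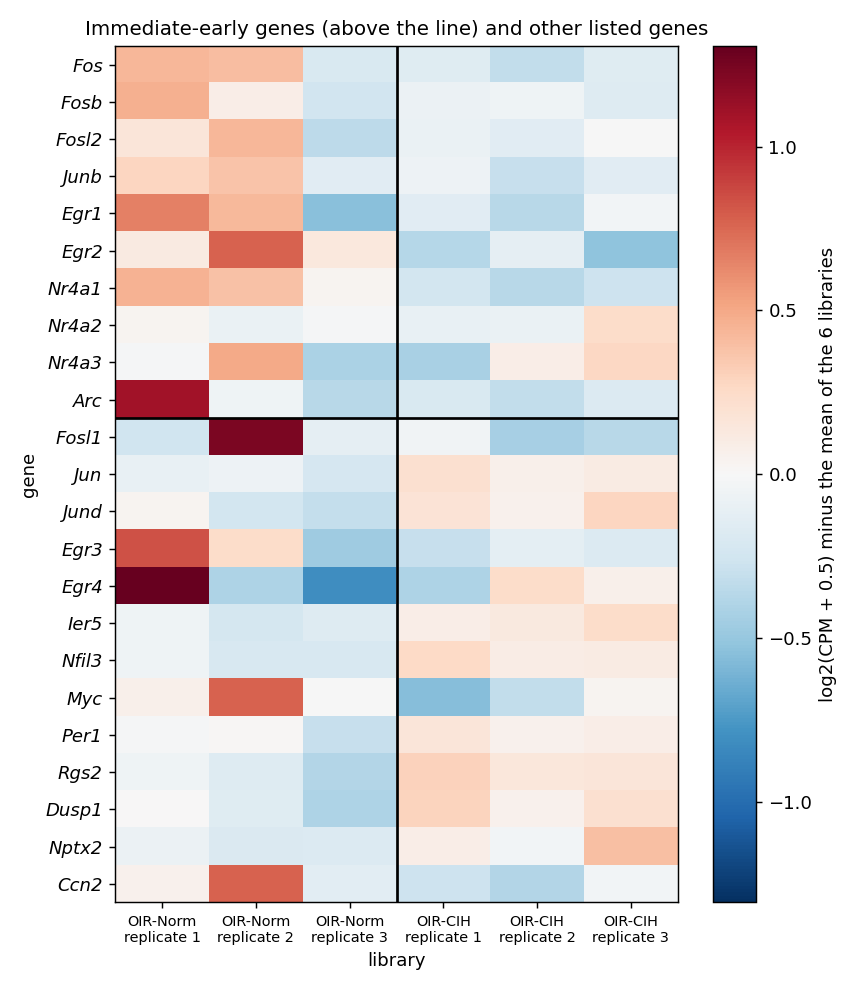
Deviation of log2(CPM + 0.5) from the mean of the 6 libraries (colour, red higher and blue lower) for the 10 genes (above the line), the 5 family relatives and the genes of lowest p in the lists of other immediate-early factors and effectors, by library. OIR-Norm replicates 1 and 2 are red for most of the 10 genes (medians 0.36 and 0.39), OIR-Norm replicate 3 is blue (-0.22), and Jun, Jund, Rgs2 and Dusp1 show the opposite order of groups.

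Other genes of the immediate-early response were not lower as a group. Of 16 other immediate-early factors, 9 had a positive and 7 a negative log2 fold change (median 0.01), and 0 were called by edgeR, DESeq2 or limma, with 3 higher and 1 lower at an unadjusted p under 0.05 in edgeR, against 13.2% of all genes in either direction. Those of lowest p were Ier5, a regulator of the heat shock factor, at 0.31 (SE 0.09), Nfil3, a bZIP repressor, at 0.32 (SE 0.09), Myc at -0.69 (SE 0.28) and the clock gene Per1 at 0.20 (SE 0.09), all log2 fold changes, with edgeR adjusted p of 0.212 to 0.363 by Benjamini-Hochberg adjustment. Npas4, a factor induced in neurons by calcium entry alone, was at 2.12, 1.91 and 2.54 CPM in OIR-CIH and 2.79, 1.93 and 2.29 CPM in OIR-Norm, and was named here after its value was seen. Its groups overlapped throughout.

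Of 21 immediate-early and delayed effectors, 8 had a positive and 13 a negative log2 fold change (median -0.08), 0 were called by edgeR, DESeq2 or limma, and 3 in each direction had an unadjusted p under 0.05 in edgeR, against 13.2% of all genes in either direction. Rgs2, a regulator of G protein signalling, was at 109, 98.6 and 98.7 CPM in OIR-CIH and 85.5, 78.8 and 67.7 CPM in OIR-Norm, and Dusp1, the phosphatase that switches off MAP kinases, at 28.5, 24.2 and 27.0 CPM against 23.3, 20.8 and 17.5 CPM. Both were higher in every OIR-CIH library, the opposite of Nr4a1, at log2 fold changes of 0.40 (SE 0.09) and 0.37 (SE 0.11) with edgeR adjusted p of 0.0989 and 0.233 after Benjamini-Hochberg adjustment. The groups did not overlap for 4 of the 21 effectors, near the 18.4% of all genes in either direction. Nptx2, a synaptic pentraxin, had a log2 fold change of 0.31 (SE 0.10) and Ccn2, a matrix-associated growth factor, one of -0.51 (SE 0.19).

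Of 23 upstream factors and co-regulators, 7 had a positive and 16 a negative log2 fold change (median -0.08), 0 were called by edgeR, DESeq2 or limma, and 5 had an unadjusted p under 0.05 in edgeR, all lower. Of all genes tested, 13.2% had such a p in either direction and 7.01% were lower with such a p. Nab1 and Nab2, corepressors that bind EGR proteins, were the members of lowest p. Nab2, itself an EGR target, was at 11.2, 9.46 and 9.37 CPM in OIR-CIH and 14.6, 12.9 and 11.7 CPM in OIR-Norm, and Nab1 was at 26.6, 25.9 and 26.1 CPM against 30.6, 33.3 and 30.5 CPM. The groups did not overlap in either gene, and the log2 fold changes were -0.39 (SE 0.13) and -0.27 (SE 0.08), with edgeR adjusted p of 0.269 and 0.245 by Benjamini-Hochberg adjustment. Groups without overlap were seen for 7 of the 23 genes of this list, against 18.4% of all genes in either direction. The acetyltransferase gene Ep300 (-0.20, SE 0.07) and Mef2c (-0.24, SE 0.09), a factor of activity-dependent transcription, followed.

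Summed markers of other cell types also differed between these libraries. Blood markers (5 of 5 tested) summed to 56.2 to 75.2 CPM in OIR-CIH and to 108, 115 and 52.0 CPM in OIR-Norm replicates 1, 2 and 3, so that OIR-Norm replicates 1 and 2 were above and OIR-Norm replicate 3 below every OIR-CIH library, and 4 of 5 had a negative log2 fold change. Microglia markers (8 of 8) summed to 73.6 to 88.7 CPM in OIR-CIH and 88.1 to 104.95 CPM in OIR-Norm, with a negative log2 fold change for 7 of 8, and endothelial markers (8 of 8) to 268 to 302 and 271 to 346 CPM, with a negative one for 8 of 8. The largest part of the endothelial sum was Kdr, at 165 to 179 CPM in OIR-CIH and 170 to 175 CPM in OIR-Norm (log2 fold change -0.007, SE 0.07). Lens markers (5 of 6 found) summed to 246 CPM in OIR-Norm replicate 2 and to 10.3 to 41.9 CPM in the other 5 libraries, with a negative log2 fold change for 5 of 5. Of these 26 markers none was at 0 in any library, 0 were called by edgeR or limma, 9 had an unadjusted p under 0.05 in edgeR, all lower, and 1, Cx3cr1, was called by DESeq2. Over all genes tested, the share at an unadjusted p under 0.05 in edgeR was 13.2% in either direction and 7.01% lower. Markers of inner retinal neurons (20 of 20) summed to 2339 to 2577 CPM in OIR-CIH and 2223 to 2423 CPM in OIR-Norm, and the log2 fold change was positive for 16 of 20 (median 0.09). It was positive for 10 of 10 photoreceptor markers (median 0.17), and in each of these neuron lists 0 were called by edgeR, DESeq2 or limma and 2 had an unadjusted p under 0.05 in edgeR, both higher. The heat shock genes that respond to tissue handling (5 of 5) summed to 176 to 203 CPM in OIR-CIH and 167 to 188 CPM in OIR-Norm, with 0 called by edgeR, DESeq2 or limma and 0 at an unadjusted p under 0.05. The part of these cell types, of dissection and of sex in the differences above was not tested.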

How the data were processed

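Retinal RNA from OIR-CIH and OIR-Norm pups was sequenced in 3 libraries per group. The authors aligned the reads with STAR 2.7.9a and deposited raw counts per gene, as whole numbers without normalization. The submitters' notes name GRCm38 and the methods Ensembl 105, and the strand column kept was not stated. The 10 genes and the gene lists were chosen with earlier results of these data known. Symbols (32158 of 32285 identifiers) and exon lengths came from GENCODE M21. Genes whose counts summed to 10 or more were kept, library sizes were corrected by TMM (trimmed mean of M-values), and genes were tested with edgeR 4.0.16 (quasi-likelihood test, R 4.3.3) on all 6 libraries without covariates, with Benjamini-Hochberg adjustment over 20021 genes. Genes were called at an adjusted p under 0.05 with a log2 fold change exceeding 0.5 in size, as in the study's methods. The SE is the size of the log2 fold change divided by the square root of the F statistic. CPM were TMM-scaled, with 0.5 CPM added on the log scale.

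Named were the 10 genes, 5 relatives, the genes of lowest p (at most 4) of each other list and the 5 genes of most similar profile. No pair of replicates agreed within sampling noise (chi-square per degree of freedom of 11.5 or more). In simulated counts with 200 genes changed, the test called 84 of 100 changed by a log2 value of 1, 76 of 100 changed by 0.7 and 5 unchanged genes, and 1 gene was called with none changed. The changed genes had a mean over 1 CPM, and every simulated gene had the spread usual for its level, with no wider spread in OIR-Norm. DESeq2 1.42.0, limma 3.58.1 on log2(CPM + 0.5), median-of-ratios scaling, other filters on low counts, no minimum fold change, a block and leaving out each library were the alternatives. Lim2 of the lens list was not matched.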

Additional observations from a re-analysis of the deposited data

How the results depend on the processing

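Of the 10 genes, 1 (Nr4a1) was called under every alternative that used all 6 libraries, and 0 to 4 were called with 1 library left out. Nr4a1 had an adjusted p of 3.13e-05 in DESeq2, 0.0290 in limma, 0.000139 in edgeR on every gene with at least 1 count, and 0.00218 to 0.0979 in edgeR with 1 library left out. The median log2 fold change of the 10 was -0.35 in limma and -0.58 to -0.19 with 1 library left out. Over all genes, 63 were called, against 135 in DESeq2, 213 of 24439 with every gene of at least 1 count, and 35 to 104 with 1 library left out, the lowest without OIR-CIH replicate 1 and the highest when OIR-Norm replicate 3 was dropped. Fos had an adjusted p of 0.0334 in edgeR on every gene with at least 1 count but stayed under the minimum fold change. The causes of these differences were not tested.

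The sign of the log2 fold change turned with 1 library left out for Nr4a2 (-0.078 to 0.12), Nr4a3 (-0.31 to 0.30), Egr4 (-0.93 to 0.98) and Crygs (-3.78 to 0.18). In the fit with the replicate block 84 genes were called, Nr4a1 among them at an edgeR adjusted p of 0.0194, and the median of the 10 was -0.36. Between libraries of the same number, deviations from the group means correlated at 0.162, 0.143 and -0.238, and not every library correlated best with its own number. With 3 libraries per group such deviations constrain each other, so they cannot decide whether the numbers mark a pairing. Among the marker genes named, Ttr and Crygs were called by edgeR with the replicate block, and Ttr, Crygs, Cx3cr1 and Hbb-bs on every gene with at least 1 count. Power at low read numbers such as those of Egr2, or at a spread as wide as that of most of the 10 genes in OIR-Norm, was not tested.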

Other observations

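Among the marker lists, some genes separated the groups without being called. The groups did not overlap for 2 of 6 pigment epithelium, 2 of 8 Müller glia and 3 of 8 microglia markers. The same held for 3 of 10 photoreceptor and 2 of 20 inner retinal neuron markers. No endothelial, lens or blood marker separated the groups. Over all genes tested 18.4% did so, and 13.2% had an unadjusted p under 0.05 in edgeR. Pigment epithelium markers (6 of 6 tested) summed to 237 to 349 CPM in OIR-CIH and 144 to 252 CPM in OIR-Norm, with 0 called by edgeR, DESeq2 or limma and 3 at an unadjusted p under 0.05 in edgeR. The log2 fold change was positive for 3 (Ttr, Lrat and Rpe65) and negative for 3 (Mlana at -0.91, Tyrp1 at -0.40 and Best1 at -0.24), and Ttr made up most of the sum. Ttr, the carrier of thyroxine and retinol-binding protein made by the pigment epithelium, was at 216, 156 and 147 CPM in OIR-CIH replicates 1, 2 and 3 and at 134, 86.3 and 88.6 CPM in OIR-Norm, a log2 fold change of 0.75 (SE 0.17, edgeR adjusted p of 0.103, Benjamini-Hochberg). It was called by edgeR under 3 alternatives, with an adjusted p of 0.00062 with the replicate block, 0.000289 on every gene with at least 1 count and 0.0083 without OIR-Norm replicate 1. Of 8 Müller glia markers 5 had a positive and 3 a negative log2 fold change (median 0.06), 0 were called by edgeR, DESeq2 or limma, and 1 in each direction had an unadjusted p under 0.05 in edgeR. Rlbp1, the retinaldehyde-binding protein, was at 555, 492 and 511 CPM in OIR-CIH and 437, 403 and 389 CPM in OIR-Norm, a log2 fold change of 0.34 (SE 0.09, edgeR adjusted p of 0.164, Benjamini-Hochberg). Aqp4, the water channel of Müller glia, was at 76.2, 73.4 and 78.5 CPM in OIR-CIH and 91.1, 92.1 and 99.3 CPM in OIR-Norm, a log2 fold change of -0.31 (SE 0.07, edgeR adjusted p of 0.103, Benjamini-Hochberg). Cx3cr1, the fractalkine receptor of microglia, was at 8.24, 7.32 and 11.6 CPM in OIR-CIH and 13.9, 15.3 and 13.6 CPM in OIR-Norm, a log2 fold change of -0.65 (SE 0.16) with an adjusted p of 0.142 in edgeR and 0.00868 in DESeq2.

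Hbb-bs, an adult beta globin and 1 of the 4 globin genes listed, was among the genes closest to the mean library profile of the immediate-early genes. It was at 45.2, 40.6 and 52.9 CPM in OIR-CIH and 76.9, 80.0 and 41.1 CPM in OIR-Norm, with a log2 fold change of -0.51 (SE 0.19) and an edgeR adjusted p of 0.303 with Benjamini-Hochberg adjustment, which was 0.00686 without OIR-Norm replicate 3 and 0.0487 on every gene with at least 1 count. Hbb-bt, the other beta globin listed, was at 4.28, 4.58 and 4.82 CPM in OIR-CIH and 5.45, 4.98 and 2.32 CPM in OIR-Norm, with a log2 fold change of 0.11 (SE 0.25). Hba-a1 was at 7.22, 6.45 and 11.2 CPM in OIR-CIH and 17.5, 20.4 and 5.56 CPM in OIR-Norm. Hba-a2 was at 2.79, 2.08 and 3.73 CPM against 6.07, 6.42 and 1.35 CPM. In all 4 globins OIR-Norm replicates 1 and 2 were above every OIR-CIH library. OIR-Norm replicate 3 was below every OIR-CIH library in Hba-a1, Hba-a2 and Hbb-bt.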
